A study of Mus musculus with 2 samples.

Results

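Open regions inside genes are stretches of accessible DNA that lie within a protein-coding gene but away from both of its outer ends. They were found in adult mouse neural retina by ATAC-seq, an assay whose Tn5 transposase cuts and tags open DNA. More insertions in a stretch mean more accessible DNA there. Insertions of a Gabra3 knockout and a wild-type library were pooled, and windows of 200 bp in steps of 50 bp were kept at a Poisson p under 1e-05, taken against the mean over the genome or over the 10 kb around the window, whichever was higher. Windows within 150 bp were merged. A region was kept when it was autosomal, lay inside a protein-coding gene and over 1 kb from the ends of every gene, and held at least 50 insertions over both libraries. This left 2743 of 36840 open regions, in 2082 genes, or 10.1% of the 20665 autosomal protein-coding genes. Open regions inside genes numbered 13096 before the minimum count. The regions were chosen by their pooled insertions, so their strength is a description. The split of those insertions between the libraries took no part in the choice.

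The knockout library came from a C57BL/6 mouse lacking Gabra3, an X-linked gene whose product is a GABA-A receptor alpha subunit, and the control library from a wild-type littermate. The labels give the stage as adult and the tissue as neural retina, which was flash-frozen, and 20000 nuclei and 75 bp reads were used for each. Neither the nature of the knockout allele nor the sex of the mice was stated in the labels. The knockout library held 7646373 insertions and the wild-type library 7635799. The whole Gabra3 gene on chromosome X, 224 kb long, held 121 knockout and 126 wild-type insertions, so the count over the gene does not separate the labels. Each genotype had 1 library. Every ratio below therefore compares 2 libraries with no replicate check, and no test between genotypes was possible. A ratio is the log2 of the knockout count over the wild-type count, with 0.5 added to each, scaled to the insertions in all autosomal open regions. Intervals are exact Clopper-Pearson 95% intervals of the split of the summed count and cover counting error only.

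Accessible DNA inside a gene can be an alternative promoter, an enhancer of the same or another gene, or a site bound by architectural proteins such as CTCF. In photoreceptors, which make up most cells of the mouse retina, the homeodomain factors Crx and Otx2 bind short TAATCC-like sites near promoters and enhancers of phototransduction genes, together with Nrl and Nr2e3 in rods. Housekeeping promoters more often have a high content of CpG dinucleotides, with GC boxes read by Sp factors and CCAAT boxes read by NF-Y.

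The regions included transcript starts. RefSeq lists more than 1 start for many genes, and a gene's span runs out to its outermost transcript, so a start farther in lies inside the gene. Of the 2743 regions, 644 (23.5%) held a listed start of their own host gene, 93 lay within 1 kb of a listed start, 1446 (52.7%) lay over 1 kb from every listed start, and 560 lay in genes with no listed start. The 250 bases before 7 of these starts are given below from RefSeq (GRCm38), read 5′ to 3′ along the gene, because they show the contrast between CpG-rich starts and CpG-poor photoreceptor starts. Capitals mark 3 motifs on either strand. The GC box reads GGGCGG, or CCGCCC on the other strand. The box bound by NF-Y reads CCAAT, or ATTGG. The Crx and Otx2 site reads TAATCC, or GGATTA. Hdac4 (a class IIa histone deacetylase; chr1:92180342-92180591, minus strand) and Cnnm2 (a magnesium transport protein; chr19:46761359-46761608, plus strand) hold strong, GC-rich starts. Sag (rod arrestin; chr1:87803430-87803679, plus strand), Guca1a (the guanylate cyclase activator of photoreceptors; chr17:47400607-47400856, minus strand) and Casz1 (a zinc finger factor of retinal fate; chr4:148889097-148889346, plus strand) hold CpG-poor ones. Unc119, whose protein carries lipid-modified proteins in photoreceptors, holds 2 such starts in separate regions (chr11:78345334-78345583 and chr11:78346460-78346709, plus strand) and was chosen after its values were seen.
Hdac4: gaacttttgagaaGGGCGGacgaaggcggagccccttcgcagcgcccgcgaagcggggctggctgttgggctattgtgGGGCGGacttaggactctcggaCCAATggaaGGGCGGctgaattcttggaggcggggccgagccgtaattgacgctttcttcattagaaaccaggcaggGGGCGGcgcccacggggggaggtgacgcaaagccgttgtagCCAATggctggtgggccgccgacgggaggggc
Cnnm2: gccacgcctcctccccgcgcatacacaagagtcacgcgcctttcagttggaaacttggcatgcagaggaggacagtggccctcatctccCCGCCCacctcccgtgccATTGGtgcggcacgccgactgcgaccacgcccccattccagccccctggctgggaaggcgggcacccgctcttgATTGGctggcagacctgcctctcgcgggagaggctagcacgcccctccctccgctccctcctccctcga
Sag: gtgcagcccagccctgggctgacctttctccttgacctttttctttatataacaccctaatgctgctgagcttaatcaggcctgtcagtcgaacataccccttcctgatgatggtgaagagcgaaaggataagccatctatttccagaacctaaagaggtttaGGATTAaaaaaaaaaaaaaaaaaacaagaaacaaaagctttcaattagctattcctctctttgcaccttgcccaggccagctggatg
Guca1a: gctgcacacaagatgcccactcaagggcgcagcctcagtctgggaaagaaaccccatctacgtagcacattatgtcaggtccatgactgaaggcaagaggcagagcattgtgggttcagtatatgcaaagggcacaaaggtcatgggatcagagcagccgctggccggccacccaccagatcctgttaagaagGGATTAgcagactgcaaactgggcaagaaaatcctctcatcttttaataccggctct
Casz1: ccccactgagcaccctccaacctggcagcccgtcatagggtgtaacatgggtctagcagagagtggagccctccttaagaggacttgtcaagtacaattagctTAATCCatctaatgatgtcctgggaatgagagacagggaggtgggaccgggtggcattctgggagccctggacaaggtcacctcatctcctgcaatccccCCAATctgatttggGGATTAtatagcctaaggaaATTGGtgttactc
Unc119 start nearer the gene's outer end: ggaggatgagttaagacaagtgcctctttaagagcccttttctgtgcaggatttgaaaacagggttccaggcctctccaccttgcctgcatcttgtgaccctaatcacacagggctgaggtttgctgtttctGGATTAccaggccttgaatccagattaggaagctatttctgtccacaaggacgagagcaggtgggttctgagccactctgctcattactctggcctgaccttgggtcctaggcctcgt
Unc119 start farther in: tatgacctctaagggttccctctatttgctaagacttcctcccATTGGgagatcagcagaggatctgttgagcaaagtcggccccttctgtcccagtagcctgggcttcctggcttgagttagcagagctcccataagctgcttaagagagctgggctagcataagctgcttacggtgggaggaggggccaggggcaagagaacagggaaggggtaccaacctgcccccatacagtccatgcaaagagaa

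The 250 bases shown for Hdac4 took 118 insertions in knockout and 118 in wild type, and those of Cnnm2 took 130 in knockout and 146 in wild type. GC made up 65.2% of the Hdac4 stretch and 68% of the Cnnm2 stretch, which hold 4 and 1 GC boxes and 2 CCAAT boxes each. The Sag stretch took 59 insertions in knockout and 57 in wild type, and GC made up 42.8% of it. Sag, Guca1a and Casz1 hold 1, 1 and 2 TAATCC sites and no GC box. Of the Unc119 stretches, the one nearer the outer end holds 1 TAATCC site and the one farther in holds none, and their insertions were alike: 74 in knockout and 84 in wild type nearer the outer end, 87 in knockout and 83 in wild type farther in. The ratio of observed to expected CpG was 0.930 for Hdac4 and 0.178 for Sag.

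Over all 644 held starts, with 1 start taken per region, the composition lay near that of open starts at the outer ends of genes. Median GC was 61.2% and the median ratio of observed to expected CpG was 0.735, beside 60.8% and 0.786 at 4115 outer-end starts with at least 50 insertions, and 56% and 0.547 over all 20085 listed starts of protein-coding genes. The 7 motifs were searched as exact letters on both strands in the same 250 bases. TAATCC can overlap CCAAT by its last bases, which happens in none of the stretches shown. GGGCGG was present in 61.3% of held starts, 64.1% of open outer-end starts and 43.4% of all starts. CCAAT was present in 36.3% of held starts, 40.1% of open outer-end starts and 35.3% of all starts. The TATA box letters TATAAA were present in 5.59% of held starts, 6.22% of open outer-end starts and 11.7% of all starts. The ETS site CCGGAAG (12.1%, 16.3% and 9.21%), the E-box CACGTG (7.61%, 9.48% and 6.69%) and the cAMP response element TGACGTCA (2.64%, 3.57% and 1.98%) were each less frequent in held starts than in open outer-end starts. TAATCC went the other way, at 8.85% of held starts, 5.22% of open outer-end starts and 5.82% of all starts. In a split chosen after these values were seen, 183 held starts with a CpG ratio under 0.6 had TAATCC in 18.0%, beside 7.75% of the 852 open outer-end starts and 7.40% of the 10866 listed starts under the same limit. Among the 461 held starts at or above it, the share was 5.21%, beside 4.57% of open outer-end starts. A match is a description of letters and not of binding.

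Many held starts lay in genes whose outer 5′ end had few insertions. The regions were chosen for at least 50 insertions and the outer ends were not, which favours the regions in this comparison. In windows of 1 kb, with both libraries summed, 541 of the 644 regions with a listed start (84.0%) had more insertions than the outer 5′ end of their gene, with a median of 171.5 at the region and 13 at the outer end. At 380 of them (59.0%) the outer end had under 20 insertions. The 1446 regions far from listed starts split evenly: 718 (49.7%) exceeded the outer end, with medians of 93 at the region and 115.5 at the outer end. At Hdac4 the window at the region took 327 insertions in knockout and 319 in wild type, and the outer end, 15.2 kb away, took 4 in knockout and 2 in wild type. At Sag the window took 196 in knockout and 206 in wild type, and the outer end, 5.51 kb away, took 11 in knockout and 15 in wild type. Gphn, the gene of the inhibitory synapse scaffold gephyrin, and Arntl, which encodes the clock factor Bmal1 and was chosen after its values were seen, showed the same layout: the outer end of Gphn took 0 insertions in knockout and 3 in wild type, and that of Arntl took 8 in knockout and 5 in wild type. Casz1 was open at both places, with 133 in knockout and 153 in wild type at the inner start, and 83 in knockout and 77 in wild type at the outer end.

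**Figure D1:**
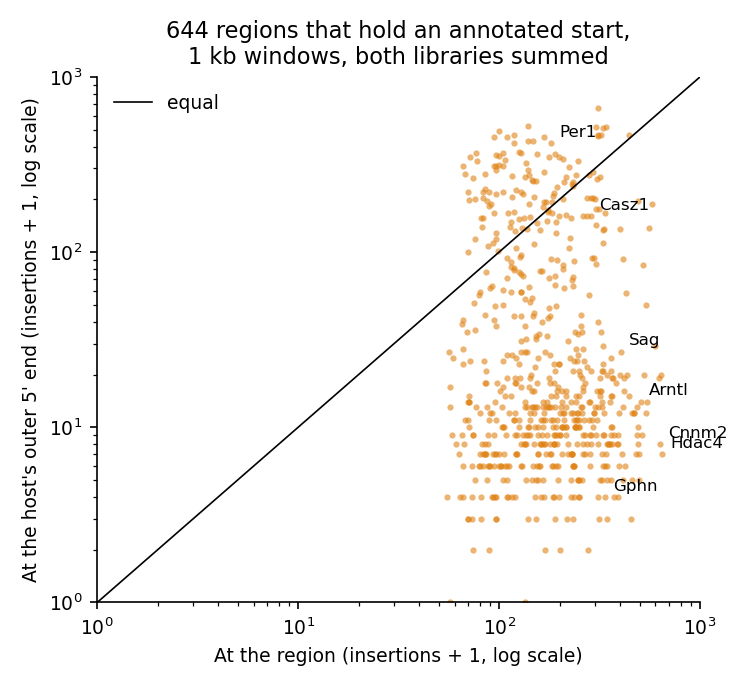
Insertions (count + 1, log scale, both libraries summed, 1 kb windows) at each of 644 regions with a listed start (horizontal axis) and at the outer 5′ end of the same gene (vertical axis), 1 point per region, with the line of equality. The regions, unlike the outer ends, were chosen for at least 50 insertions, which favours points under the line, where 541 of 644 lie; Per1, a clock gene named after its values were seen, lies above it.

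Regions with a start lay toward the beginning of the gene and the others did not. Of the 644 regions with a listed start, 54.8% lay in the first 25% of the gene's length and 3.88% in the last 25%, at a median of 6.10 kb from the outer 5′ end. Of the 1446 regions over 1 kb from listed starts, 27.0%, 25.9%, 23.8% and 23.2% lay in successive 25% stretches from the 5′ end, at a median of 27.7 kb. Being over 1 kb from gene ends is part of the choice, which empties the outermost stretches of short genes.

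**Figure D2:**
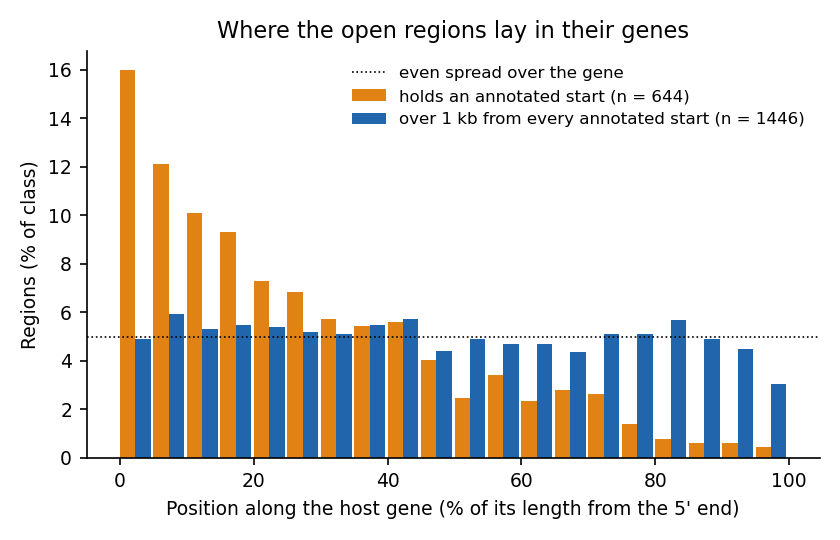
Position of regions along their host gene (horizontal axis, % of its length from the 5′ end in 20 bins) as % of each class (vertical axis), for 644 regions with a listed start (orange) and 1446 over 1 kb from every listed start (blue); the dotted line marks an even spread. The orange bars fall off toward the 3′ end and the blue bars stay near the line.

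The regions were compact. The median width was 550 bp (interquartile range 500 to 750), up to 2150 bp, and the median count was 88 insertions over both libraries (63 to 148). Start-holding regions were wider, at a median of 800 bp and 163 insertions, and regions over 1 kb from starts had medians of 500 bp and 75 insertions. The share with a start was 10.5% at 50 to 99 insertions, 30.3% from 100 up to 200 and 58.9% at 200 or more. Averaged over start-holding regions, insertions within 100 bp of the centre stood 18.1-fold over those 1500 to 2000 bp away in knockout and 18.3-fold in wild type. Over 1445 regions far from starts, without the strongest, the contrast was 9.56-fold in knockout and 10.1-fold in wild type. Of the 2743 regions, 2686 (97.9%) overlapped a region called from the knockout insertions by themselves. For the wild-type insertions by themselves it was 2706 (98.7%), and 12 regions overlapped neither call. The shares were slightly higher among all 13026 autosomal open regions with at least 50 insertions, at 12898 (99.02%) for knockout and 12942 (99.36%) for wild type. The 2 sets are not matched for depth, with medians of 88 and 144 insertions. These calls reuse the pooled reads. Around the minimum, 189 regions held 50 to 52 insertions and 183 regions inside genes, left out, held 47 to 49, with median widths of 450 bp for each.

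**Figure D3:**
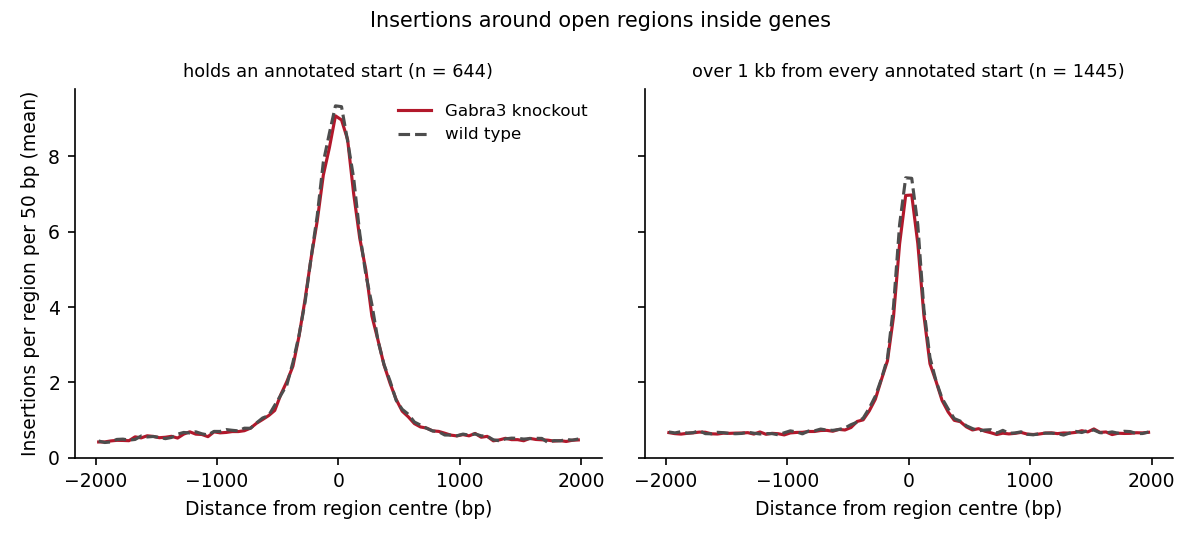
Mean insertions per region in 50 bp bins (vertical axis) against distance from the region's centre in bp (horizontal axis), knockout in red and wild type dashed in grey, for regions with a listed start (left) and over 1 kb from every listed start (right, without the strongest region). The libraries' lines run together, with a broader peak on the left, where the centre is 18.1-fold over the flanks in knockout and 18.3-fold in wild type.

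Summed over all 2743 regions, accessibility was alike in the libraries. The regions held 168752 knockout and 176361 wild-type insertions, a log2 ratio of -0.0046 (-0.014 to 0.0050). They took 2.26% of autosomal insertions in knockout and 2.36% in wild type, and 12.02% of the insertions in autosomal open regions in knockout and 12.06% in wild type, on 1.76 of the 17.6 Mb that those regions cover. The median log2 ratio was -0.0087 with an SD of 0.29 over regions, beside a median of 0.011 and an SD of 0.25 over all 13026 autosomal open regions with at least 50 insertions. The median count was 88 insertions over the 2743 and 144 over the 13026, so this comparison and those below are not matched for depth. Among the 2743, the SD was 0.34 at 50 to 99 insertions and 0.17 at 200 or more. At 1.5-fold or more, 60 regions (2.19%) were higher in knockout and 87 (3.17%) lower, against 1.39% higher and 1.76% lower among all 13026. The balance depended on the scale: 73 were higher and 70 lower with trimmed-mean scaling, and 41 higher and 124 lower with all autosomal insertions as the scale. At 2-fold or more, 3 were higher and 7 lower, against 0.0768% and 0.115% of all, and each of these 10 had 50 to 99 insertions. The counting interval lay wholly above 0 for 39 regions (1.42%) and wholly below 0 for 55 (2.01%), against 1.98% and 1.39% of all. None of the 426 regions with 200 or more insertions reached 1.5-fold. For 72.3% of the regions the interval stayed within 2-fold either way, and for 19.3% within 1.5-fold, which is the limit of what counts of this size can show.

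**Figure D4:**
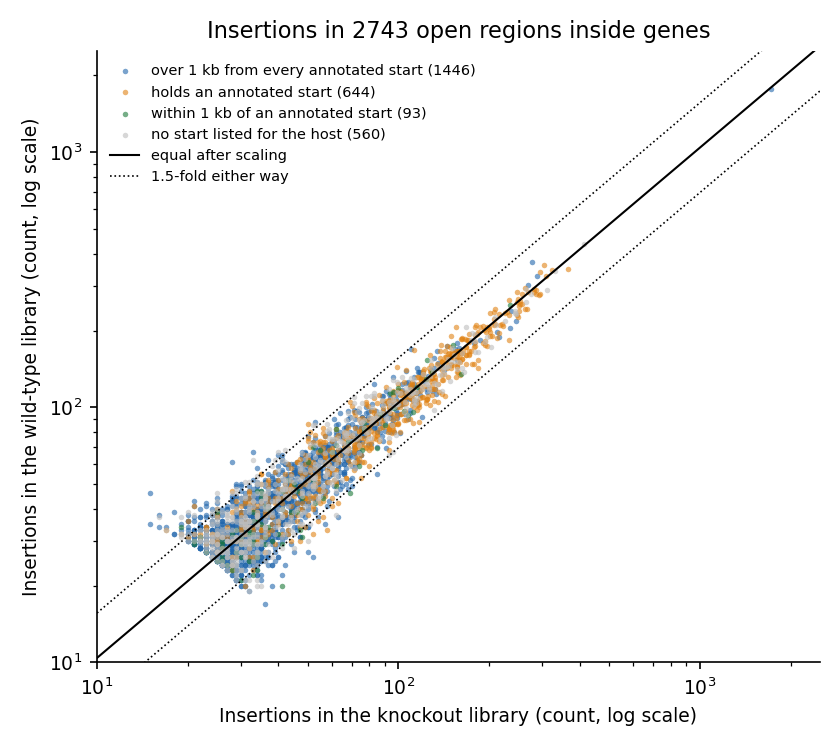
Knockout insertions (horizontal axis, log scale) and wild-type insertions (vertical axis, log scale), 1 point per region for all 2743 regions, coloured by where the region lies relative to listed starts. Points follow the solid line of equality after scaling, and those past the dotted 1.5-fold lines have low counts, with 60 past it higher in knockout and 87 lower (73 and 70 with trimmed-mean scaling).

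The classes differed little. Start-holding regions held 62188 insertions in knockout and 63640 in wild type (log2 0.026, 0.0098 to 0.042), and regions over 1 kb from starts held 68135 in knockout and 72357 in wild type (-0.028, -0.043 to -0.013). These intervals do not overlap. Of the start-holding regions, 9 (1.40%) were 1.5-fold higher and 10 (1.55%) lower. Far from starts, 34 (2.35%) were higher and 50 (3.46%) lower, against 1.39% and 1.76% of all 13026. The classes differ in depth, with medians of 163 and 75 insertions. At 50 to 99 insertions, the intervals overlapped: -0.0078 (-0.059 to 0.044) with a start and -0.025 (-0.047 to -0.0031) far from starts. At 200 or more the sums were 0.034 (0.014 to 0.054) and -0.031 (-0.068 to 0.0056). The regions within 1 kb of gene ends, by comparison, summed to 0.023 (0.019 to 0.028) and the 1227 outside protein-coding genes to -0.043 (-0.059 to -0.027), so the regions with a start stood near the gene ends and the others near the regions outside genes. The 183 CpG-poor held starts had 12075 insertions in knockout and 12773 in wild type (-0.022, -0.058 to 0.014), and the 461 CpG-rich ones 50113 in knockout and 50867 in wild type (0.037, 0.020 to 0.055). Scaling to all autosomal insertions instead lowers every log2 ratio by 0.061, which turns the positive sums negative and leaves the differences between classes as they are.

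Single regions at the extremes had few insertions. Among regions with the same direction on both read strands, the highest lay inside Rai1, the gene of a chromatin reader (chr11:60176501-60176950), with 36 insertions in knockout and 17 in wild type (log2 1.12, 0.27 to 2.07). Hdc, the gene of histidine decarboxylase, had 41 in knockout and 20 in wild type (1.08), and Brsk2, the gene of a neuronal polarity kinase, 52 in knockout and 26 in wild type (1.05). Wdr59 (38 in knockout, 20 in wild type) and Wdr66 (50 in knockout, 27 in wild type) followed. The lowest region lay inside Nt5dc1 (chr10:34316801-34317350), with 15 insertions in knockout and 46 in wild type (-1.53, -2.51 to -0.69). E030030I06Rik had 16 in knockout and 38 in wild type (-1.16), Chsy1, the gene of a chondroitin synthase, 15 in knockout and 35 in wild type (-1.14), and Oacyl 16 in knockout and 37 in wild type (-1.13). Cadm2, which encodes a synaptic cell adhesion molecule, had 28 in knockout and 61 in wild type (-1.05, -1.76 to -0.40) at chr16:67609051-67609550. The other 3 regions inside Cadm2 had ratios of -0.18, -0.08 and -0.52. All of these 10 regions lay past 1.5-fold, and each held under 100 insertions over both libraries. Those in Rai1, Brsk2 and Wdr59 overlapped no region called from wild-type insertions by themselves, and that in Chsy1 none called from knockout ones. In Rai1 the plus strand had 23 in knockout and 6 in wild type, and the minus strand 13 and 11. In Brsk2 the plus strand had 33 in knockout and 11 in wild type, and the minus strand 19 and 15.

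The strongest regions were nearly level between the libraries. The region with most insertions lay inside Myo3a, the gene of a class III myosin (chr2:22588451-22590600), with 1717 insertions in knockout and 1772 in wild type (log2 0.014, -0.083 to 0.11). It stood apart from the rest: it was the widest, over 1 kb from every listed start, and 93.3% of its reads repeated a position and strand, against 16.9% to 45.6% in the other regions of this paragraph that are named as strongest or widest. With all reads kept its log2 ratio was -0.25. Impact (chromosome 18) had 414 in knockout and 436 in wild type, and Hdac4 364 in knockout and 349 in wild type. Cnnm2, Fbxl19, an F-box gene, Tbc1d14, a Rab regulator gene, Add3, an adducin gene, and Phf19, a Polycomb-like gene, had 288 to 323 insertions in knockout and 327 to 363 in wild type. Peg3 was the exception among the 10 strongest, with 278 insertions in knockout and 372 in wild type (-0.36, -0.59 to -0.13) at chr7:6727351-6729100. Impact and Peg3 are both imprinted in mouse. Beside those of Myo3a and Peg3, the widest regions included those inside Mllt10 (194 in knockout, 175 in wild type) and Hnrnph1 (149 in knockout, 190 in wild type), both holding a listed start. The region farthest from any gene end, 247 kb in, lay inside Rims1, which encodes a scaffold of the presynaptic active zone, with 32 in knockout and 27 in wild type.

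Host genes were long. Their median length was 54.7 kb, against 17.5 kb over all 20665 genes, and the share of genes with a region was 1.87% under 10 kb, 8.65% at 10 to 30 kb, 15.4% at 30 to 100 kb, 27.8% at 100 to 300 kb and 31.5% above. Per megabase of gene there were 4.70 regions under 10 kb, 5.36 at 10 to 30 kb and 0.994 above 300 kb. A single region was found in 1617 genes, 2 in 328 and 3 or more in 137. Gse1, the gene of a corepressor-associated protein, had the most with 12, whose counts ran from 29 to 110 in knockout and 23 to 109 in wild type and summed to 612 in knockout and 622 in wild type (log2 0.036, -0.13 to 0.20). Casz1 and Ntm, the gene of the adhesion molecule neurotrimin, had 8 each, and Camta1, a calmodulin-binding transcription activator, and Esrrb had 7 each. Zfp536, Sfi1 and Trappc9 had 6, and a further 13 genes had 5, among them Slc44a1, a choline transporter gene, and Epb41. The Sfi1 regions at chr11:3133001-3133250, chr11:3142401-3142650 and chr11:3161101-3161500 overlapped no region called from either library by itself. The Sfi1 region at chr11:3168801-3169100 had 17.3% of its reads under a mapping quality of 10. Of the 8 genes with 6 or more regions, Trappc9 had a summed interval apart from 0, with 223 insertions in knockout and 288 in wild type (-0.31, -0.57 to -0.053). In each of these 8 genes some regions had a ratio above 0 and others below it.

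Rod genes had the highest share with a region of any list. Of the 20 rod marker genes, whose median length was 16.3 kb, 15 (75%) held 22 regions, beside 10.1% of all genes with a region. Gnat1, the rod transducin alpha gene, had 25 in knockout and 46 in wild type (log2 -0.81, -1.58 to -0.09). Gnb1, the transducin beta gene, had 61, 89 and 75 in knockout and 60, 91 and 88 in wild type. Of these 4 ratios, 2 lay below 0, and that of Gnat1 had an interval apart from 0. Pde6a and Pde6b, the subunits of the rod phosphodiesterase, had 45 and 43 in knockout and 28 and 42 in wild type, and Pde6a was the 1 rod region with an interval above 0 (0.73, 0.03 to 1.48). The channel genes Cnga1 and Cngb1 had 39 and 29 in knockout and 33 and 35 in wild type, and the exchanger gene Slc24a1 73 in knockout and 97 in wild type. Sag, which ends the light response, had 193 in knockout and 201 in wild type, the most of the list, and Pdc, the phosducin gene, 33 in knockout and 37 in wild type.

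The outer segment genes followed the same range. Prph2, the gene of the disc rim protein peripherin, had 159 and 72 insertions in knockout and 171 and 70 in wild type, and Rp1, a microtubule protein of the axoneme, had 75, 60 and 41 in knockout and 87, 67 and 48 in wild type. The rod factors Nrl, Nr2e3 and Samd7 had 98, 51 and 63 in knockout and 108, 64 and 86 in wild type. Together the 22 regions held 1619 insertions in knockout and 1816 in wild type (log2 -0.11, -0.20 to -0.0092). Of these, 7 lay above and 15 below 0, against 1338 above and 1405 below over all 2743 regions. Their median was -0.11, against -0.0087 over all 2743 and -0.026 over the 2099 that held no start. Of the 22 rod regions, 1 held a start. With 1 library per genotype, differences between animals or libraries, fewer rods and less accessible DNA per rod cannot be told apart in bulk tissue. With a trimmed mean of M values as the scale, the sum was -0.084 (-0.18 to 0.013). At a mapping quality of at least 30 it was -0.090 (-0.19 to 0.0090), and with all reads kept -0.050 (-0.13 to 0.034). The interval reaches past 0 under these settings. It stayed below 0 with all autosomal insertions as the scale (-0.17, -0.27 to -0.071). The same held in windows of 500 bp either side of the centre (-0.11, -0.20 to -0.021). Moving the limit to 2 kb from gene ends left 8 of the 20 rod genes with a region, and 2278 regions in all. A minimum of 100 insertions left 9 rod genes. The other lists were not recounted at these settings, so the rank of the rod list there is not known.

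**Figure D5:**
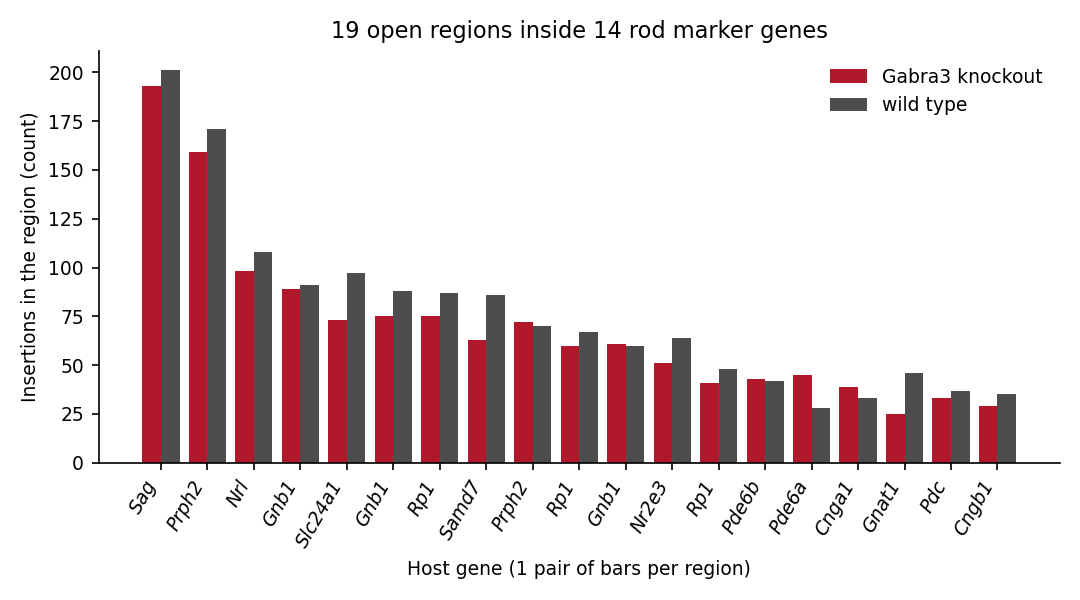
Insertions per library (vertical axis, count) in each of 19 regions inside 14 rod marker genes, ordered by the summed count, knockout bars in red to the left of wild-type bars in grey, 1 library each and so without error bars. In 12 of these 19 regions the scaled ratio lay below 0, and Pde6a and Gnat1 have the widest ratios, in opposite directions.

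Genes of photoreceptor transcription factors also held many regions. Of 19 genes, 10 (52.6%) held 26 regions, with 1544 insertions in knockout and 1661 in wild type (log2 -0.046, -0.15 to 0.054). Of the 26, 11 lay above and 15 below 0, against 1338 above and 1405 below over all 2743 regions. Casz1 had 122 in knockout and 141 in wild type at its inner start, and its 7 other regions had 25 to 76 in knockout and 34 to 73 in wild type. The widest ratio of the list was its region at chr4:148806801-148807250, with 50 in knockout and 34 in wild type (0.61, -0.042 to 1.29). Esrrb, an orphan nuclear receptor of rods, had 7 regions, the strongest with 142 insertions in knockout and 140 in wild type, 147 kb from its outer 5′ end, which took 15 in knockout and 17 in wild type.

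Markers of the other retinal cell types held regions in 12.5% to 35.3% of their genes for 5 lists, beside 10.1% of all genes, and in none for ganglion cells. The cone list had regions in 2 of 13 autosomal genes, Guca1a and Gnat2. Guca1a, described above as a gene of photoreceptors and so not of cones alone, held most insertions of this list. It had 96 insertions in knockout and 85 in wild type at the start printed above. A neighbouring region of Guca1a had 96 in knockout and 132 in wild type (-0.40, -0.80 to -0.01). Gnat2 had 28 in knockout and 30 in wild type. Bipolar markers had regions in 3 of 16 genes (187 insertions in knockout, 189 in wild type), amacrine markers in 6 of 17 (344 in knockout, 388 in wild type), with Tfap2a at 106 in knockout and 125 in wild type. Muller glia markers had 2 of 16, Rlbp1 with 21 in knockout and 32 in wild type and Dkk3 with 24 in knockout and 36 in wild type, and horizontal cell markers had 1 of 7, Tpm3 with 32 in knockout and 44 in wild type. The lists of ganglion cell (15 genes), microglia (12), vascular (11) and pigment epithelium and melanocyte markers (12) and of muscle genes (14) had no region at this minimum. Liver genes had 1 of 14, Hnf4a with 43 in each library, and T and B cell genes 1 of 15, Pax5 with 31 in knockout and 43 in wild type. Lists of short genes have less room for a region, and their median lengths ran from 7.95 kb for ganglion cell markers to 42.9 kb for vascular markers.

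Synapse and receptor genes were mostly level. Of 16 autosomal GABA-A receptor subunit genes, the family to which Gabra3 belongs, only Gabrr2, a subunit gene active in the retina, held a region (chr4:33066201-33066700), with 16 insertions in knockout and 34 in wild type (log2 -1.01, -1.98 to -0.13). This region held 50 insertions over both libraries, exactly the minimum for a region to be kept, so it was among the weakest. On the plus strand it had 5 in knockout and 14 in wild type, and on the minus strand 11 in knockout and 20 in wild type. Inhibitory synapse and chloride transport genes had 7 regions in 5 of 19 genes, with 469 insertions in knockout and 513 in wild type (-0.070, -0.25 to 0.11); Gphn had 186 in knockout and 207 in wild type, and a region of Slc12a5, the neuronal chloride exporter gene, 71 in knockout and 96 in wild type. Ribbon synapse genes, which serve the photoreceptor terminal, had regions in 13 of 24 genes, with 991 insertions in knockout and 1062 in wild type (-0.041, -0.17 to 0.085), led by Unc13b with 137 in knockout and 156 in wild type. Synaptic adhesion genes had 23 regions in 11 of 34 genes, with 1016 insertions in knockout and 1154 in wild type (-0.12, -0.25 to -0.0018). Of these 23 regions, 15 lay below 0, against 1405 of all 2743 regions. By 1.5-fold or more, 3 of the 23 were lower, the region of Cadm2 given above among them, and 0 higher. The share lower by 1.5-fold or more was 3.17% over all 2743 regions and 1.76% over all 13026. With the trimmed-mean scale the adhesion sum was -0.10 (-0.23 to 0.020), and in windows of 500 bp either side of the centre -0.092 (-0.21 to 0.024), so its interval reaches past 0 there. The interval stayed below 0 with all autosomal insertions as the scale (-0.19, -0.31 to -0.063). It also did at a mapping quality of at least 30 (-0.15, -0.27 to -0.022) and with all reads kept (-0.12, -0.23 to -0.0072). Ionotropic glutamate receptor genes had 5 of 17 genes with 223 insertions in knockout and 214 in wild type, metabotropic ones 2 of 8 with 146 in knockout and 157 in wild type, and sodium and calcium channel genes 3 of 25 with 226 in knockout and 272 in wild type, Scn4a with 33 in knockout and 67 in wild type having the widest ratio.

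Regulators formed the remaining groups. Circadian clock genes had 19 regions in 10 of 19 genes, with 1462 insertions in knockout and 1568 in wild type (log2 -0.042, -0.15 to 0.062). Tef, a clock output factor, had 294 in knockout and 278 in wild type at its inner start, and Arntl 258 in knockout and 279 in wild type. Nuclear receptor genes had 25 regions in 13 of 30 genes (0.032, -0.065 to 0.13), with Nr3c2, the mineralocorticoid receptor gene, at 176 in knockout and 148 in wild type. Chromatin regulator genes had 43 regions in 19 of 34 genes, with 2688 insertions in knockout and 2774 in wild type (0.014, -0.063 to 0.091); a region of Zmiz1 had 57 in knockout and 35 in wild type (0.75, 0.13 to 1.41). Inner retina and progenitor factor genes had 9 of 31 genes (-0.14, -0.33 to 0.038), axon guidance genes 7 of 32 (0.15, -0.030 to 0.34), Wnt, Notch, BMP and hedgehog genes 6 of 31 with 811 insertions in each library, and housekeeping genes 2 of 13 with 467 in knockout and 494 in wild type. None of these groups had a summed interval apart from 0 at the main scale. With all autosomal insertions as the scale, that of the inner retina and progenitor factors lay below 0 (-0.21, -0.39 to -0.023).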

How the data were processed

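ATAC-seq reads of 1 knockout and 1 wild-type library were used. Per the submitters' processing notes, Trimmomatic 0.33, BWA, bedtools 2.23.0 and GRCm38 (mm10) were used. The BWA version, tool settings and duplicate filtering were not given in the sources used here. Deposited lists hold 1 aligned read per line with a score, the mapping quality, which the authors left without normalization. Of the reads, 93.4% in knockout and 93.6% in wild type had a mapping quality of at least 10. From these, 5′ ends were shifted by 4 bp (plus strand) and -5 bp (minus strand) to the insertion, and each position and strand was counted once per library. Single-end reads without molecular identifiers cannot separate repeats of 1 molecule from several molecules.

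Regions were called as the opening states, with gene ends from a RefSeq table of GRCm38 and starts from RefSeq's promoter table. Starts on chromosome 18 were not analysed here. Called means past 1.5-fold or 2-fold; no test was run. Computations used Python 3.11.15, NumPy 2.4.6, pandas 2.3.3 and SciPy 1.17.1, and were checked on simulated data. The regions, gene lists and settings were chosen with earlier results of these data known. The rule for named regions took the 10 strongest, the 5 highest and 5 lowest ratios with 1 direction on both strands, the 10 genes with most regions, the strongest and widest-ratio region of each list, the 5 widest and the farthest from a gene end; other genes were named after their values were seen. Results of a few regions are not reported here. Alternatives changed the scale, minimum, calling threshold, distance from gene ends, gene ends used, read filters, insertion shift and counting window.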

Additional observations from a re-analysis of the deposited data

How the results depend on the processing

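With 1 library per genotype no replicate could be left out. No paired analysis was possible because each genotype had 1 library, which leaves a single pair. Raising the minimum to 100 insertions left 1182 regions, 9 rod genes with a region, 6 regions 1.5-fold higher in knockout, 11 lower and 0 past 2-fold either way. Requiring 2 kb from gene ends left 8 rod genes. The summed log2 ratio was -0.066 with all autosomal insertions as scale and 0.018 with trimmed-mean (TMM) scaling; the median was -0.070 and 0.014 there, -0.021 at a calling threshold of 1e-08 and 0.0072 with all reads kept. With all reads kept, 92 regions were 1.5-fold higher, 95 lower, and 7 were 2-fold higher. In windows of 500 bp either side of the centre, 1 region was 2-fold higher and 1 lower. The ratios of gene lists stayed inside their main intervals in 115 of 115 recomputed values. Those of named regions did so in 99 of 100 recomputed values, Myo3a with all reads kept being the exception. This is a weak check, because many intervals were wide and a change of scale shifts every ratio by the same amount. Some intervals came to lie wholly below 0 with all autosomal insertions as the scale. They were those of Muller glia, photoreceptor factor, inner retina and progenitor factor, and sodium and calcium channel genes. Leaving out the strongest region, or the 15 regions with over 10% of reads under a mapping quality of 10, was chosen after seeing the data and left 2742 and 2728 regions with sums and counts close to the full set. Windows of 250 or 1000 bp either side, also added then, put 85.7% and 81.8% of start-holding regions above the outer 5′ end. Depth limits single ratios: at 50 to 99 insertions the interval stayed within 2-fold for 54.4% of regions.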
